A study of Mus musculus with 4 samples.

Results

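The collagen genes of the mouse were followed in RNA sequencing of CD8+ T cells enriched from percutaneous tumour grafts. They were chosen by name: every protein-coding gene with a mouse symbol of the form Col, a number, the letter a and a number. This gave 44 genes of the 36464 gene IDs in the data, 19112 of which were protein-coding. All mice were male wild-type C57BL/6 animals, 6 per treatment, injected intraperitoneally with control IgG or with an antibody against SIGLEC15, a sialic acid-binding lectin, with grafts taken on day 19. Each treatment gave 2 libraries, each made from a mixture of 3 cell pellets, so the spread between libraries is a spread between pools. The sources used here name neither the tumour line nor the purity of the enriched cells. The study asks what blocking SIGLEC15 does to the function of these cells. The question here is which collagens were present in their RNA and whether fibrillar and basement membrane chains differed.

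Collagens are the main structural proteins of connective tissue and are built from 3 alpha chains wound into a triple helix. Fibrillar collagens, types I, II, III, V, XI, XXIV and XXVII, form or shape the fibres that fibroblasts lay down around many tumours. Type IV forms the sheet-like network of basement membranes, which lie under epithelia and around vessels, and types VII, XV and XVIII belong to the basement membrane zone. Chains are modified in the endoplasmic reticulum by prolyl and lysyl hydroxylases, folded with the chaperone encoded by Serpinh1, trimmed outside the cell and crosslinked by lysyl oxidases. T cells are not known as a main source of collagen.

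The libraries are named by treatment and replicate number, as IgG 1, IgG 2, anti-SIGLEC15 1 and anti-SIGLEC15 2, and values are listed in that order. They held 16026202 counted reads in IgG 1, 15512093 in IgG 2, 15696675 in anti-SIGLEC15 1 and 14854807 in anti-SIGLEC15 2. Values are RPKM, reads per kilobase of exon, scaled to 1000000 counted reads. IgG 1 stood apart. Its summed level of 15 T cell markers was 1037 RPKM against 2820 to 3125 RPKM in the other libraries. Its summed level of 14 hepatocyte and hepatoma markers was 5994 RPKM against 1224 to 2607 RPKM. Of that, Alb, Trf and Afp gave 2795, 1342 and 1049 RPKM. The sum of 10 epithelial markers was 2630 RPKM against 484 to 940.5 RPKM. Of the tested genes, 9 of 13 hepatocyte and hepatoma and 7 of 8 epithelial markers were highest in IgG 1, against 34% of all. The remaining hepatocyte and hepatoma markers were highest in anti-SIGLEC15 1. The remaining epithelial one was highest in anti-SIGLEC15 2 and lowest in IgG 1. Fold changes and medians that IgG 1 moves most are given with and without it.

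The label under which these genes were grouped, collagens of tumour stroma, went against the levels found. Of 12 fibroblast markers, 10 stayed under 1 RPKM in every library, and the list summed to 4.52 RPKM in IgG 1, 1.68 in IgG 2, 2.75 in anti-SIGLEC15 1 and 2.44 in anti-SIGLEC15 2. Pdgfra, a receptor that defines many fibroblasts, measured at most 0.0622 RPKM. Decorin (Dcn), a proteoglycan that coats collagen fibrils, measured 2.15, 0.530, 1.51 and 0.899 RPKM in the same order. Of 8 mural cell markers 7, and of 10 endothelial markers 8, also stayed under 1 RPKM. Pdgfrb, a receptor of pericytes and fibroblasts, was at most 0.125 RPKM. Pecam1, which endothelial cells share with leukocytes, lay between 1.75 and 2.70 RPKM. The genes are therefore called here simply the collagen genes.

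A pair of genes from unlike classes made up most of the collagen reads in every library except anti-SIGLEC15 2, where it took 46.1%. The classical stromal chains were nearly absent. Only Col18a1 and Col27a1 reached 1 RPKM in at least 2 libraries, that is 4.55% of the 44 genes, against 34.2% of all gene IDs and 53.7% of protein-coding genes. The other 42 collagens were under 1 RPKM in every library, and 39 of the 44 did not exceed 0.5 RPKM anywhere. Reads were found in all 4 libraries for 31 collagens, while 13 had 0 reads in at least 1 library. A total of 14 collagens never exceeded 5 reads and 23 never reached 10 reads. For scale, a count of 3 reads corresponded to 0.0267 RPKM for Col18a1 and 0.0285 RPKM for Col1a1 in IgG 1, a limit that covers counting error only.

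**Figure D1:**
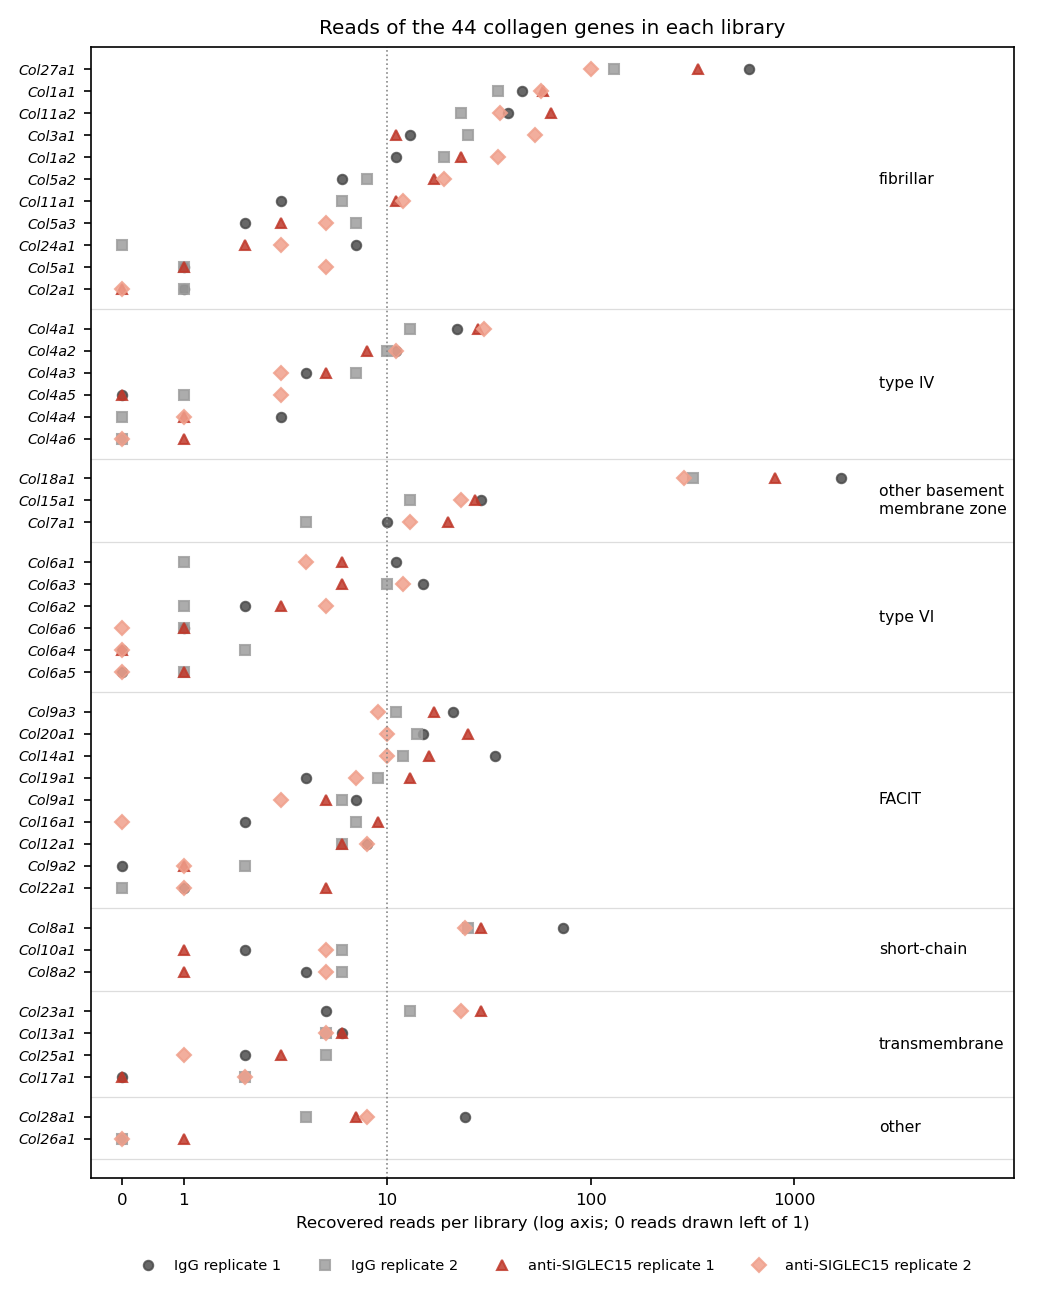
Reads of each collagen gene in each of the 4 libraries, with genes in rows grouped by class and recovered read numbers on a logarithmic axis. Colour and marker shape give the library. Col18a1 and Col27a1 hold 100 or more reads in every library, and every other gene stays at 73 reads or fewer.

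Col18a1 encodes the alpha chain of type XVIII collagen, a heparan sulphate proteoglycan of basement membranes whose end fragment is endostatin. Col27a1 encodes a fibrillar collagen best known from cartilage. Their promoters are shown because these are the collagens with clear expression in the libraries, and that of Col3a1 is shown beside them because this fibroblast chain had few reads. Of the 44 genes, 35 had an entry among the RefSeq promoters of GRCm38.p6. The stretch before the upstream start site of Col18a1 is chr10:77166549-77166780 on the minus strand, that before the start site of Col27a1 is chr4:63215162-63215411 on the plus strand, and that before the start site of Col3a1 is chr1:45311288-45311537 on the plus strand. Each is written 5′ to 3′ along its gene, and capitals mark a match on either strand to the GC box GGGCGG, the CCAAT box CCAAT, the TATA box TATAAA, the HNF1 site GTTAAT or the FOXA site TGTTTAC.
Col18a1: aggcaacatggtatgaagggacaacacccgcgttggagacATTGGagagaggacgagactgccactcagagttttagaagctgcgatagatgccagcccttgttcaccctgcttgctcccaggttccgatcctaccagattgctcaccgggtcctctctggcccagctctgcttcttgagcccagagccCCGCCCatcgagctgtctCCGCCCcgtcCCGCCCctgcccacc
Col27a1: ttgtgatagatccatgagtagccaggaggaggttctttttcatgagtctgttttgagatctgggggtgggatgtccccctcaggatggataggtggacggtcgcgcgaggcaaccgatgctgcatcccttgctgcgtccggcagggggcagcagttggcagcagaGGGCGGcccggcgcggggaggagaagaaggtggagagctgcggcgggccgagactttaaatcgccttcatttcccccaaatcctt
Col3a1: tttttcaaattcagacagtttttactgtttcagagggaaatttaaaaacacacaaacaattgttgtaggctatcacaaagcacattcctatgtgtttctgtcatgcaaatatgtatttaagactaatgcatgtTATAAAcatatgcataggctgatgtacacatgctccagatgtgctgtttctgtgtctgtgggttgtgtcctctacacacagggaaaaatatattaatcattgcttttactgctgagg
The Col18a1 stretch has 3 GC boxes and 1 CCAAT box, the Col27a1 stretch 1 GC box, and the Col3a1 stretch 1 TATA box. Col18a1 also has a downstream start site, whose window (chr10:77113706-77113955, not shown) held none of these motifs. The start site used here for Col27a1, 63215412, lies downstream of 63214004, where the gene begins in the annotation used for exon lengths. Which start sites were used in these libraries was not tested. Among 32851 promoter windows of 250 bases, 32.7% hold a GC box, 33.8% a CCAAT box and 12.4% a TATA box. The HNF1 site is held by 6.43% and the FOXA site by 3.17% of them. The Col3a1 window was the lowest in GC of the 3, at 35.2%. A match describes letters only and is not evidence of a bound factor.

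Col18a1 (ENSMUSG00000001435) lies on the minus strand of chromosome 10, from 77052178 to 77166548 in GRCm38. It measured 15.02 RPKM in IgG 1, 2.90 in IgG 2, 7.32 in anti-SIGLEC15 1 and 2.74 in anti-SIGLEC15 2, from 1690, 316, 807 and 286 reads. The groups overlapped, since each treatment had 1 high and 1 low library. The IgG mean was 8.96 ± 8.57 RPKM (SD, n = 2), and the anti-SIGLEC15 mean was 5.03 ± 3.24 RPKM (SD, n = 2). On the log2(RPKM + 1) scale, the fold change of anti-SIGLEC15 over IgG was -0.50 (SE 0.79), with an adjusted p of 1 by limma.

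Col27a1 (ENSMUSG00000045672) lies on the plus strand of chromosome 4, from 63214004 to 63334991. It measured 2.87, 0.644, 1.64 and 0.517 RPKM in the same order of libraries, from 598, 130, 335 and 100 reads. The libraries thus ranked exactly as for Col18a1, and the groups overlapped again. The IgG mean was 1.75 ± 1.57 RPKM (SD, n = 2) and the anti-SIGLEC15 mean was 1.08 ± 0.793 RPKM (SD, n = 2). Its log2 fold change was -0.33 (SE 0.55), with an adjusted p of 1 by limma.

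Across the transcriptome limma called 0 of 12484 tested genes (0%) at an adjusted p of 0.05, and 146 (1.17%) had an unadjusted p under 0.05. No collagen was among those called. A second fit, limma-voom on the reads recovered from the RPKM values, also called 0 of 15056 genes (0%). An unadjusted p under 0.05 was found for 92 of them (0.611%), with none of the 18 collagens it could test in that number. The sign for both leading collagens rested on single libraries. Without IgG 1 the log2 fold change of Col18a1 was 0.52, without anti-SIGLEC15 2 it was 0.07, and without IgG 2 it was -1.52. Col27a1 was at 0.07 without anti-SIGLEC15 2 and at -0.95 without IgG 2. Each of these fits leaves 1 library in a group, so no call is read from them. Scaled to the T cell markers, Col18a1 was at -1.16 and Col27a1 at -0.86, neither of them called.

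The pair kept a nearly fixed ratio while its level varied widely between libraries. Col18a1 differed 5.48-fold and Col27a1 5.54-fold between the highest and the lowest library, or 2.67-fold and 3.17-fold without IgG 1, yet the RPKM ratio of Col18a1 to Col27a1 was 5.24, 4.51, 4.47 and 5.30. Laminin alpha 5 (Lama5), a partner in basement membranes, measured 33.4, 7.26, 15.6 and 6.92 RPKM. The ratio of Col18a1 to Lama5 was 0.450, 0.400, 0.470 and 0.396, a range of 1.19-fold. Against albumin (Alb, 2795, 556, 1089 and 625 RPKM), the main plasma protein of hepatocytes, Col18a1 amounted to 0.537%, 0.521%, 0.672% and 0.439%. Its ratio to Cd3e, a T cell receptor subunit at 11.03, 35.9, 31.4 and 30.2 RPKM, was 1.36, 0.0809, 0.233 and 0.0908. That ratio differed 16.8-fold between libraries, with IgG 1 far above the others. Both collagens had the order IgG 1, anti-SIGLEC15 1, IgG 2, anti-SIGLEC15 2 from high to low, which 18.2% of the 12484 tested genes shared. Whether the hepatocyte, epithelial or T cell markers have a part in these levels was not tested, and in RNA from a mixture of cells, fewer cells of a type and less RNA per cell cannot be told apart.

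**Figure D2:**
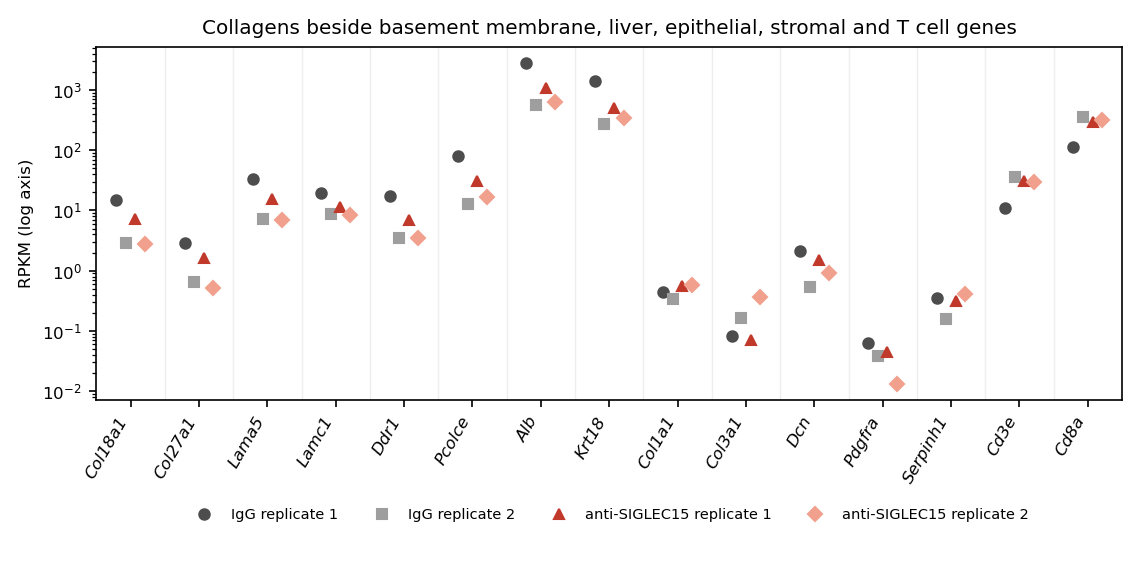
Level in each library as RPKM on a logarithmic axis for Col18a1, Col27a1 and genes of the basement membrane, liver, epithelium, stroma and T cells. Col18a1 runs parallel to Lama5, from 15.02 to 2.74 RPKM, whereas Cd3e and Cd8a are lowest in IgG 1.

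The balance of the collagen pool moved with these 2 genes. Collagens together took 2733 reads in IgG 1, 768 in IgG 2, 1613 in anti-SIGLEC15 1 and 838 in anti-SIGLEC15 2. Col18a1 and Col27a1 made up 83.7% of them in IgG 1 (Wilson 95% interval 82.3 to 85.1), 58.1% in IgG 2 (54.6 to 61.5), 70.8% in anti-SIGLEC15 1 (68.5 to 73.0) and 46.1% in anti-SIGLEC15 2 (42.7 to 49.4). The remaining 42 genes gave 445, 322, 471 and 452 reads, a far narrower range. These intervals cover counting error only.

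Fibrillar and basement membrane collagens were contrasted as classes. With every member counted, the 11 fibrillar chains summed to 3.94, 1.63, 3.20 and 2.32 RPKM and the 9 basement membrane chains to 15.7, 3.32, 8.08 and 3.51 RPKM. The ratio of fibrillar to basement membrane collagen was thus 0.251 in IgG 1, 0.491 in IgG 2, 0.397 in anti-SIGLEC15 1 and 0.661 in anti-SIGLEC15 2. Col27a1 and Col18a1 set that balance. When both were left out, a choice made after their values were seen, the order of the classes turned: the ratio was 1.59, 2.34, 2.07 and 2.35. Against type IV chains alone, the fibrillar chains without Col27a1 stood at ratios of 3.25, 3.73, 4.33 and 4.10. Groups overlapped in the first 2 of these ratios, while in the last both anti-SIGLEC15 libraries lay above both IgG libraries.

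**Figure D3:**
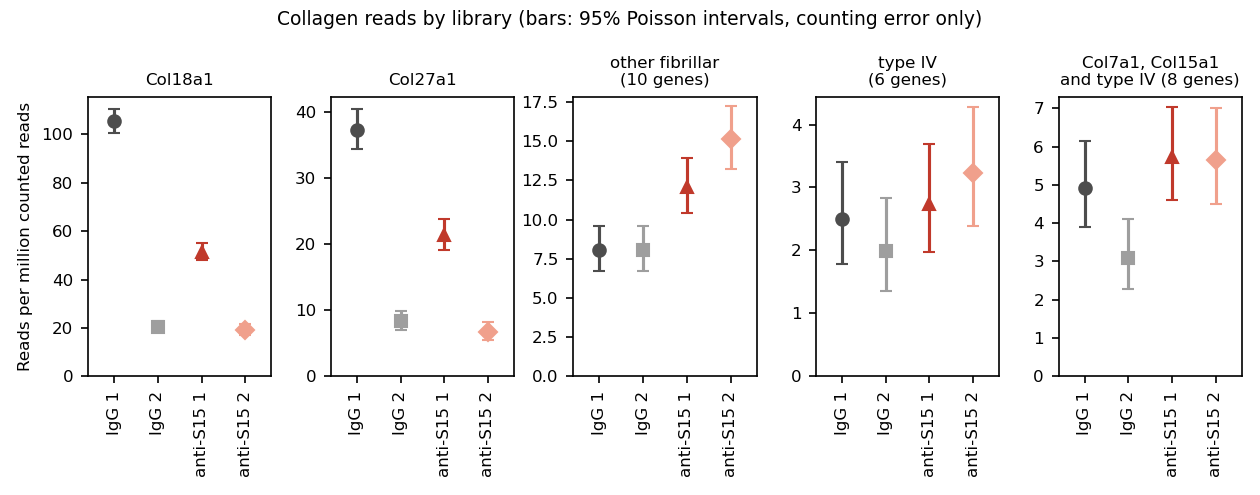
Reads of collagen classes in each library, scaled to 1000000 counted reads, with bars for exact Poisson 95% intervals, which cover counting error only. The axis label anti-S15 stands for anti-SIGLEC15. The fibrillar chains without Col27a1 lie at 8.05 and 8.06 with IgG and at 12.1 and 15.15 with anti-SIGLEC15.

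Among fibrillar chains other than Col27a1, levels were low and both anti-SIGLEC15 libraries lay above both IgG libraries. The 10 genes together gave 129 reads in IgG 1, 125 in IgG 2, 190 in anti-SIGLEC15 1 and 225 in anti-SIGLEC15 2. Scaled to 1000000 counted reads, this was 8.05 (Poisson 95% interval 6.72 to 9.56), 8.06 (6.71 to 9.60), 12.1 (10.4 to 13.95) and 15.15 (13.2 to 17.3). Scaling by upper quartile or by median of ratios left the groups apart. They overlapped when libraries were scaled to their T cell markers, which gave 17.5, 6.04, 9.91 and 11.4 reads on the same scale. The matching basement membrane class without Col18a1 had the same position, at 4.93 and 3.09 with IgG and 5.73 and 5.65 with anti-SIGLEC15. It too kept this position with upper-quartile and median-of-ratios scaling and lost it with T cell marker scaling. No test sets the 2 classes apart. Both lists were trimmed after their values were seen and carry no test.

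Type I collagen, the bulk of most connective tissue, is made of the Col1a1 and Col1a2 chains. Col1a1 (ENSMUSG00000001506, chromosome 11, 94936224 to 94953042, plus strand) measured 0.437 and 0.344 RPKM with IgG and 0.563 and 0.585 RPKM with anti-SIGLEC15, from 46, 35, 58 and 57 reads. Its groups did not overlap, and the difference did not pass the test, with a limma-voom log2 fold change of 0.50 and an adjusted p of 0.995. Col1a2, which the naming rule would leave out and which was picked with its values known, stood at 0.0552 and 0.0986 RPKM with IgG and 0.118 and 0.190 RPKM with anti-SIGLEC15, from 11, 19, 23 and 35 reads. The level of Col1a1 was 7.92, 3.49, 4.77 and 3.08 times that of Col1a2. That ratio depends on the length used, since the exons of Col1a2 span 12426 bases in the annotation and its longest coding transcript 5348 bases. Col18a1, Col27a1 and Col1a1 ranked 1, 2 and 3 among the 44 genes under either length.

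Type III collagen, a companion of type I in soft tissue, came from Col3a1. It had 13, 25, 11 and 53 reads, or 0.0826, 0.164, 0.0714 and 0.363 RPKM, so its groups overlapped and 1 library held most of its reads. Its neighbour Col5a2, which encodes a chain of the type V collagen that helps start fibrils, lies 24614 bases away on chromosome 1 on the other strand. Col5a2 had 6, 8, 17 and 19 reads. The type XI chain Col11a1 had 3, 6, 11 and 12 reads, whereas Col11a2 had 39, 23, 64 and 36 reads and overlapped between groups. Col11a2 reached 0.593 RPKM in anti-SIGLEC15 1, the highest fibrillar value after that of Col27a1.

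Type IV chains were lower still. All 6 together gave 40, 31, 43 and 48 reads, or 2.496 (Poisson 95% interval 1.78 to 3.40), 2.00 (1.36 to 2.84), 2.74 (1.98 to 3.69) and 3.23 (2.38 to 4.28) reads per 1000000. Both treated libraries lay above both controls here too, and also with upper-quartile scaling, though all 4 intervals overlap. The groups overlapped with median-of-ratios and with T cell marker scaling. Col4a1 and Col4a2, the chains of nearly every basement membrane, lie head to head on chromosome 8 and share 22 exon bases on opposite strands. Col4a1 (11198423 to 11312826) had 22, 13, 28 and 30 reads, with both anti-SIGLEC15 libraries above both IgG libraries. Col4a2 (11312805 to 11449287) had 11, 10, 8 and 11 reads and showed no such separation. The more tissue-restricted type IV chains, Col4a3 to Col4a6, had at most 7 reads in any library. Apart from Col18a1, the basement membrane zone also held Col15a1, a multiplexin like Col18a1, with 29, 13, 27 and 23 reads, and Col7a1, the anchoring fibril collagen, with 10, 4, 20 and 13 reads.

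The remaining classes were sparse. Col8a1, a short-chain collagen of vessel walls, was the only other gene above 0.5 RPKM in a library, at 0.582 RPKM in IgG 1 and 0.206 to 0.236 RPKM in the others, from 73, 25, 29 and 24 reads. The fibril-associated Col14a1 had 34, 12, 16 and 10 reads and Col28a1 had 24, 4, 7 and 8 reads. In these 3 genes IgG 1 was highest. Of 18 collagens with at least 10 reads in at least 2 libraries, 7 were highest in IgG 1. That position held for 35.7% of all 15056 genes past that filter. Type VI collagen, a microfibril abundant in most stroma, gave 29, 16, 17 and 21 reads over 6 genes. The transmembrane chain Col23a1 had 5, 13, 29 and 23 reads, with both anti-SIGLEC15 libraries above both IgG libraries. Of these genes only Col8a1 meets the naming rule; the others were picked after their values were seen.

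The side on which the low collagens lay was counted beside all genes, and none passed a test. Of the 18 collagens with at least 10 reads in at least 2 libraries, 7 had both treated libraries above both controls: Col1a1, Col1a2, Col5a2, Col11a1, Col4a1, Col7a1 and Col23a1. This position held for 12.3% of all 15056 genes past that filter. Col5a2 and Col11a1 passed the filter only through the treated libraries, where they were high, so the count itself supports nothing. None had both treated libraries below both controls, a position of 6.09% of all genes. Among collagens with a mean under 100 reads the count was 7 of 16, where 16% of 5004 genes of such depth were higher, and 0 of 16 were lower, against 6.97%.

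A second filter, a mean of at least 10 reads over the 4 libraries, was added after the data were seen. It kept 18 collagens, of which 6 were higher, against 12.1% of 14755 genes, and 0 lower, against 6.17%. Among the higher genes were Col5a2 (6, 8, 17 and 19 reads), Col7a1 (10, 4, 20 and 13) and Col23a1 (5, 13, 29 and 23). They reached that mean only through the treated libraries, where they were high, so this count supports nothing either. With T cell marker scaling 2 of these 18 were higher, Col5a2 and Col23a1, against 2.76% of all genes. The first filter gave 3 of 18 with that scaling, against 2.99%, and 2 of those 3 were the genes that passed through the treated libraries alone. Upper-quartile scaling and scaling by median of ratios each gave 8 with the first filter and 7 with the second, Col11a2 being added.

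The position depended on single libraries. Without IgG 1, 10 of 18 collagens were higher in each treated library than in the remaining control, against 27.6% of all genes, and 0 were lower, against 25.2%. Without IgG 2, 7 of 18 were higher, against 44.1% of all genes, and 7 were lower, against 37.9%.

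Fold changes from limma-voom ranged from 1.61 for Col23a1 to -0.69 for Col8a1 on the log2 scale. All 18 had an adjusted p of 0.995. The median was 0.35 over the 18 collagens and -0.03 over all 15056 genes, and 0.61 and 0.01 without IgG 1. It was 0.68 over the 7 fibrillar chains, Col27a1 included at -0.54, and 0.29 over the 2 type IV chains, Col4a1 at 0.75 and Col4a2 at -0.17. The medians over the 18 collagens and over the fibrillar chains include Col5a2 at 1.30 and Col11a1 at 1.31. Both passed the filter only through the treated libraries, where they were high, so no shift is read from these medians. Without IgG 1 the fibrillar median was 0.71 and the type IV median 0.52. Fibrillar and type IV medians thus lay on the same side, and 2 type IV genes are too few to set them apart.

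**Figure D4:**
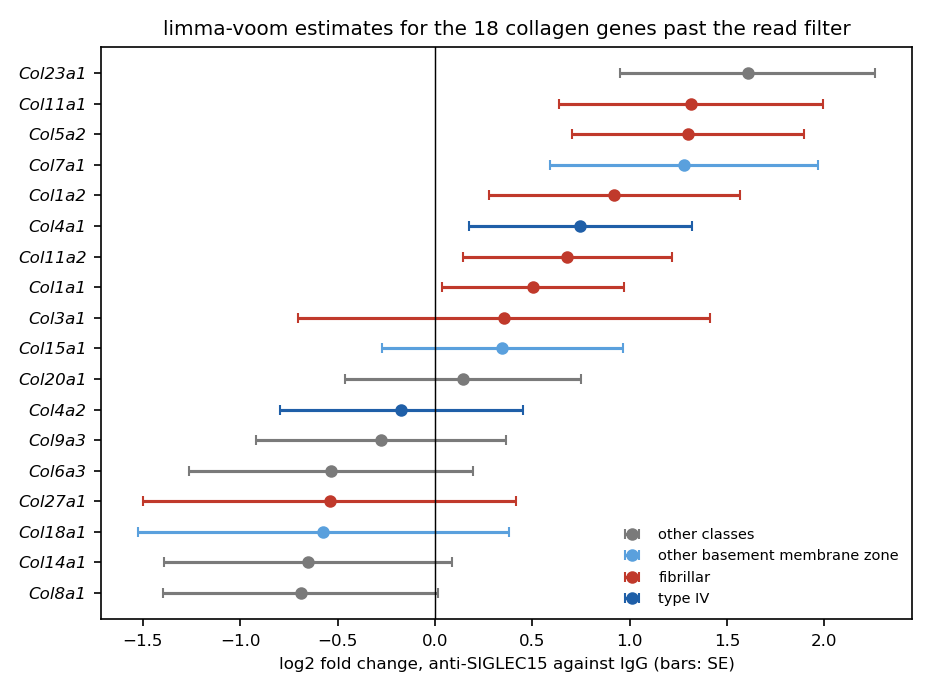
Log2 fold change of anti-SIGLEC15 over IgG from limma-voom for the 18 collagens with at least 10 reads in at least 2 libraries, with bars of 1 SE. Values run from 1.61 for Col23a1 to -0.69 for Col8a1, and none passed the test.

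Genes of collagen synthesis and secretion ranged from abundant to barely detected. Of 18 measured, 8 stayed under 1 RPKM in every library and 10 were tested, of which none was called. None of the 10 was higher in both treated libraries, a position of 12.1% of the 12484 tested genes, and none was lower in both, against 6.02%. Their median log2 fold change was -0.34, and 0.05 without IgG 1. P4hb, the beta subunit of prolyl hydroxylase that also serves as a general disulphide isomerase, measured 387, 191, 218 and 170 RPKM. P4ha1, its catalytic alpha subunit, measured 22.3, 15.6, 17.9 and 15.97 RPKM. Ppib, a proline isomerase, measured 34.7, 43.5, 40.4 and 36.1 RPKM. Serpinh1, the chaperone devoted to collagen, was among the 8 low genes, at 0.358, 0.158, 0.313 and 0.413 RPKM.

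Outside the cell the picture was similar. Of 12 procollagen processing and crosslinking genes 4 were tested and none was called. Pcolce, which enhances removal of the procollagen end piece, measured 80.7, 13.0, 31.3 and 16.5 RPKM, and the crosslinking enzyme Loxl2 10.4, 2.24, 4.31 and 2.62 RPKM, both highest in IgG 1. Lox, the classical lysyl oxidase, was at most 0.127 RPKM. Adamts14, a procollagen protease, was instead lowest in IgG 1, at 6.34, 16.8, 10.9 and 9.94 RPKM. Of 9 breakdown genes 5 were tested, none was called, and all 5 were highest in IgG 1, as were 34% of all tested genes. Their median log2 fold change was -0.64, and 0.39 without IgG 1. In IgG 1 Timp2, a metalloprotease inhibitor, reached 35.7 RPKM against 7.45 to 15.8 RPKM elsewhere.

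Collagen receptors split between the patterns. Of 11 genes 7 were tested and none was called. Itga1 and Itgb1 were higher in both anti-SIGLEC15 libraries, a position of 12.1% of the 12484 tested genes. None was lower in both, against 6.02%. Itga1, the alpha subunit of the collagen-binding integrin of tissue-resident T cells, measured 0.376, 1.12, 1.31 and 1.78 RPKM, with an adjusted p of 1 by limma. Its partner Itgb1 measured 80.5, 80.7, 80.7 and 85.1 RPKM, so IgG 2 and anti-SIGLEC15 1 were nearly equal. The limma-voom log2 fold change of Itgb1 was -0.008, on the other side of 0. The receptor kinase Ddr1, typical of epithelia, measured 17.3, 3.54, 7.05 and 3.53 RPKM and had the library order of Col18a1. Ddr2, its relative in mesenchymal cells, measured 4.22, 0.612, 1.73 and 0.748 RPKM. Lair1, an inhibitory collagen receptor of leukocytes, was at most 0.537 RPKM in any library.

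Basement membrane genes beyond the collagens often shared the library order of Col18a1. Of 15 laminin and other basement membrane genes 7 were tested and none was called. Of the 7, 6 had that order, against 18.2% of tested genes, and all 7 were highest in IgG 1, against 34%. Among the 8 untested members, nidogen 1 (Nid1), picked with its values known, was highest in IgG 2 at 0.404, 0.808, 0.532 and 0.427 RPKM. Lamc1, the common laminin gamma chain, measured 19.8, 8.78, 11.6 and 8.45 RPKM. Lamb3, a laminin chain of epithelia, measured 10.96, 4.07, 5.66 and 5.89 RPKM. The median log2 fold change of the 7 was -0.42, beside 0.02 over all tested genes. Without IgG 1 it was 0.37, beside 0.003 over all genes, so its direction rested on that library.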

How the data were processed

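Per the labels' protocols, RNA was enriched with oligo-coated beads and read on the DNBSEQ-G50 platform. The deposited files give 1 value per gene and library; the unit is not named, and the values are read as RPKM made by the authors, because multiplying them by the GENCODE M21 exon length gave whole reads within 0.02 for 98.92% to 98.97% of genes under 1000 reads. Per the submitters' processing notes the builds were GRCm38 and mm10. Aligner, counter, annotation release and use of strand: not given in the sources used here, so exon stretches shared by genes on opposite strands cannot be assigned. Symbols were found for 36346 of 36464 IDs and 118 had none.

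The main test was limma 3.58.1 (trend, robust, two-sided) in R 4.3.3 on log2(RPKM + 1), a scale that understates changes of low genes, restricted to genes reaching 1 RPKM in 2 or more libraries. P-values were adjusted by Benjamini-Hochberg and called at 0.05. Limma-voom with TMM scaling on recovered reads (at least 10 in at least 2 libraries) was the alternative for low genes. Both were run on simulated libraries that shared a mean profile apart from planted changes. That simulation does not show how the fits behave with libraries as unlike as these. Other alternatives were 3 scalings, 2 filters, a pseudocount of 0.1, each library left out and a replicate block. Genes, lists and the naming rule were chosen with earlier results of these data known. The rule names collagens that pass the filter or reach 0.5 RPKM, and of each other list at most the 3 highest genes plus Serpinh1, P4ha1, Lox, Ddr2, Lair1, Itga1, Pdgfra, Pdgfrb, Dcn, Pecam1, Alb, Cd3e and Cd8a. Macrophage and neutrophil marker lists were also measured: of 10 genes each, 5 and 7 were tested, with summed levels of 273 to 1564 and 69.3 to 847 RPKM, both highest in IgG replicate 1, and 0 called; Apoe alone gave 1522 RPKM of the macrophage sum there, while Cd68, Mrc1 and C1qc were highest in anti-SIGLEC15 replicate 2 and C1qa in IgG replicate 2. Figures were drawn with matplotlib 3.10.9, and other steps used scipy 1.17.1, numpy 2.4.6, pandas 2.3.3 and Python 3.11.15.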

Additional observations from a re-analysis of the deposited data

How the results depend on the processing

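With 2 pooled libraries per treatment and few reads per gene, depth limits every collagen but Col18a1 and Col27a1. The count of genes called was 0 with limma-voom, the replicate block, a pseudocount of 0.1, a 5 RPKM filter or none, and scaling by T cell markers, upper quartile or median of ratios, and ran from 0 to 2251 with single libraries left out: 135 without IgG replicate 1 and 2251 without IgG replicate 2. In these fits a group's lone library was taken to vary as the other group does; the cause was not tested. With the replicate block, 0 genes were called by limma and 303 had an unadjusted p under 0.05, and no other call changed; same-numbered libraries deviated together across 12484 genes (correlation 0.33), which with 2 pairs does not establish pairing. The fibrillar median rested on Col27a1 alone at -0.33, and was -0.33 with the replicate block and 0.05 over 11 genes with no filter. It ran from -0.95 to 0.07 with single libraries left out. With limma-voom, which changes filter, scale and scaling together (the cause was not tested), it was 0.68 over 7 genes. Among these, Col5a2 and Col11a1 passed the read filter only through the treated libraries. Type IV collagens had no member past the filter and so no such median by limma. The 5 RPKM filter left no fibrillar gene to test, and Col27a1 missed the filter without IgG replicate 1 or anti-SIGLEC15 replicate 1. Collagens at 1 RPKM numbered 1 to 2 with single libraries left out, those higher in both anti-SIGLEC15 libraries 7 to 10 of 18, while the share of all genes ran from 19.1% to 44.1% (3 with T cell marker scaling), and those lower in both 0 to 7 (7 without IgG replicate 2, 5 without anti-SIGLEC15 replicate 1, 3 without anti-SIGLEC15 replicate 2), against 8.48% to 38.1% of all genes. Reversed log2 fold changes were 0.52 for Col18a1 without IgG replicate 1, and 0.074 for Col18a1 and 0.066 for Col27a1 without anti-SIGLEC15 replicate 2; without IgG replicate 2, Col18a1 was called at -1.52. In limma-voom, 10 of 76 values for 16 collagens reversed, in 8 genes, and 0 were called: without IgG replicate 1, Col8a1 0.089, Col9a3 0.19, Col3a1 -0.095 and Col14a1 0.097; without anti-SIGLEC15 replicate 2, Col9a3 0.032 and Col3a1 -0.81; without anti-SIGLEC15 replicate 1, Col20a1 -0.33, Col4a2 0.24 and Col6a3 0.15; and without IgG replicate 2, Col15a1 -0.19.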

Other observations

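Some collagens share exon bases with another gene, and reads of the shared stretch cannot be assigned. Col9a3, a type IX chain, had 21, 11, 17 and 9 reads and shares 234 exon bases with Tcfl5 on the opposite strand, which was listed at 0 in all 4 libraries. Col20a1 had 15, 14, 25 and 10 reads, or 0.182, 0.176, 0.310 and 0.131 RPKM. It shares 79 exon bases with a sense-overlapping transcript at 0.912, 0.558, 1.045 and 0.382 RPKM. Whether reads listed for Col20a1 came from that transcript was not tested. Col4a3 and Col4a4 start 71 bases apart on opposite strands of chromosome 1 and had at most 7 and 3 reads.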
